A study of Mus musculus with 2 samples.

Results

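The hairpins described are 5 miRNA genes, Mir143, Mir145a and Mir145b of the smooth muscle miRNAs miR-143 and miR-145, and Mir221 and Mir222, which make miR-221 and miR-222, out of 2202 miRNA genes measured. They were picked out by name in the GENCODE M21 annotation, with earlier results of these data known. MicroRNA-seq, which reads short RNAs, was run on the hearts of adult 5xFAD/CAST male mice 8 to 10 months old, in 2 libraries of a single group called replicate 2 and replicate 1. 5xFAD is a mouse line carrying mutant human amyloid precursor protein and presenilin transgenes under the neuronal Thy1 promoter, and CAST is a wild-derived inbred strain. The labels give the strain and no transgene genotype, and no control group exists. The labels number the libraries as biological replicates with separate biosample entries but give both the same donor entry, so whether they came from separate animals is not known. The p-values below that compare the libraries cover counting error only and do not measure the spread between animals. A difference between the libraries may be technical.

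A miRNA is a short RNA cut from a hairpin transcript, and it lowers the output of mRNAs that pair with its seed, bases 2 to 8 from its 5′ end. miR-143 and miR-145 are made from a shared transcript in vascular smooth muscle, where serum response factor and myocardin switch it on. They repress transcription factors such as Klf4, Klf5 and Elk1, and are textbook marks of the contractile state. miR-221 and miR-222 act the other way in cultured smooth muscle, where they rise with growth factor signalling and repress the cell cycle inhibitor Cdkn1b and the receptor Kit. Endothelial cells, in which they restrain growth, and blood cells also make miR-221 and miR-222. In whole heart tissue, more cells of a type and more RNA per cell cannot be told apart.

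The sequences of the Mir221/Mir222 pair show what both miRNAs share. They are from RefSeq on GRCm38.p6, which matched 2 of the 5 genes, Mir221 and Mir222. The hairpins lie on the minus strand of chromosome X, and the capitals mark the 3p arm, the better known product of each.
Mir221 hairpin: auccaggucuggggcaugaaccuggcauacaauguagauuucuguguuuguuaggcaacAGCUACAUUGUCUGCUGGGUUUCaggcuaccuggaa
Mir222 hairpin: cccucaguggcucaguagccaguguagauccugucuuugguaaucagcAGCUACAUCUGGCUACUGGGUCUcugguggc
In the mature sequences the capitals mark the seed.
miR-221-3p: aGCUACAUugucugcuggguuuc
miR-222-3p: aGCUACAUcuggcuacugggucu
miR-221-5p: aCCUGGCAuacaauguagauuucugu
miR-1928: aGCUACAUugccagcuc
The 3p arms of Mir221 and Mir222 are 23 bases long each and begin with the same 8 bases, so their seed is the same. They then differ at 12 positions. Among 1738 mature entries of the table, only miR-1928 (chromosome 1, 74206562 to 74206578, minus strand) also carried this seed, and its gene had 0 counts in both libraries. That allows up to 0.593 CPM in replicate 2 and 0.771 CPM in replicate 1, where CPM are counts scaled to a sense total of 1000000 and 3 counts are taken as the limit. The deposited counts are per hairpin, so the arms were not told apart.

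On mm10, Mir221 (ENSMUSG00000065422.1) lies on chromosome X from 19146294 to 19146388 and Mir222 (ENSMUSG00000065471.1) from 19146893 to 19146971, both on the minus strand with 504 bases between them. No other gene overlaps them, and the nearest gene that is not a miRNA, the processed transcript Gm14636 on the same strand, ends 10009 bases upstream of Mir222. Mir143 (ENSMUSG00000065445.3) lies on chromosome 18 from 61649196 to 61649258 and Mir145a (ENSMUSG00000065592.2) from 61647825 to 61647894, also on the minus strand and 1301 bases apart. They lie between 2 long non-coding RNA genes, Carmn, whose annotated end is 366 bases upstream of Mir143 on the same strand, and Bvht, 352 bases from Mir145a on the opposite strand. Mir145b (ENSMUSG00000098366.1) lies on chromosome 18 from 69022199 to 69022273, 7.37 Mb from Mir143, so it is no part of that cluster. None of the 5 hairpins shared a stretch of 20 bases with another annotated hairpin, while 111 of the 412 genes tested did. None of the 5 had a count on the opposite strand. By this measure their reads had no near-identical copy among the annotated hairpins to be split with. The Mir145a and Mir145b hairpins share a run of 17 bases, under that cutoff, and whether shorter reads were lost to it was not tested.

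The sense total over genes was 5058613 counts for replicate 2 and 3889280 for replicate 1. Reads aligned to several places, given to no gene, were 46.8% of all reads in replicate 2 and 42.3% in replicate 1. Of 7 marker hairpins of heart muscle, Mir499 was the most abundant by mean level, at 5888 CPM in replicate 2 and 2732 CPM in replicate 1. Mir208a went the other way, at 1485 CPM in replicate 2 and 3885 CPM in replicate 1, and Mir1a-1, Mir133a-1 and Mir133a-2 were each under 4 CPM in both libraries. Of the 7, the 4 hairpins of miR-1 and miR-133 share a stretch of 20 bases with another hairpin. Their counts, and so the order of these markers, are uncertain. Together the 6 neuronal marker hairpins had 4 counts in replicate 2 and 0 in replicate 1. All 6 share a stretch of 20 bases with another hairpin, so these low counts cannot show that their miRNAs were absent.

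Mir143 was the most abundant of the 5, and Mir221 came next, ahead of Mir145a. Mir143 had 203484 counts in replicate 2, or 40225 CPM, and 111520 counts in replicate 1, or 28674 CPM, a mean of 34450 ± 8168 CPM (SD, n = 2). It ranked 9 of 2202 genes in replicate 2 and 13 in replicate 1. Its level was higher in replicate 2, and in both libraries it stood far above every other member. Hairpins that share a stretch of 20 bases with another, 111 of the 412 genes tested, may be undercounted. Reads aligned to several places were given to no gene, and the members share no such stretch. The ranks and percentiles of the members may thus be too high against those hairpins.

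Mir145a, which shares its primary transcript with Mir143, had 7700 counts in replicate 2, or 1522 CPM, and 5690 counts in replicate 1, or 1463 CPM. The mean was 1493 ± 41.8 CPM (SD, n = 2), at rank 46 in replicate 2 and rank 50 in replicate 1. The libraries lay closer together for Mir145a than for Mir143, Mir221 or Mir222 in CPM relative to the mean. Mir145b, named for its likeness to Mir145a, had 3 counts in replicate 2 and 1 count in replicate 1, at or under the limit of 3 counts, and no ratio is given for it.

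Mir221 had 11719 counts in replicate 2, or 2317 CPM at rank 39, and 11613 counts in replicate 1, or 2986 CPM at rank 35. Its mean was 2651 ± 473 CPM (SD, n = 2). Mir222, with the same seed and on the same strand, had 364 counts in replicate 2, or 72.0 CPM at rank 143, and 630 counts in replicate 1, or 162 CPM at rank 116. Its mean was 117 ± 63.7 CPM (SD, n = 2). Both were lower in replicate 2 than in replicate 1. The order was Mir143, Mir221, Mir145a, Mir222 and Mir145b in both libraries. Scaled to hairpin length the order was the same, with mean levels of 54682, 2791, 2132, 148 and 0.567 CPM per 100 bases. A miRNA is a short piece of its hairpin, so counts need not grow with hairpin length and this scaling is no check on the order. Neighbours in the order did not overlap between libraries, except that the limit of 3 counts makes the level of Mir145b uncertain.

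**Figure D1:**
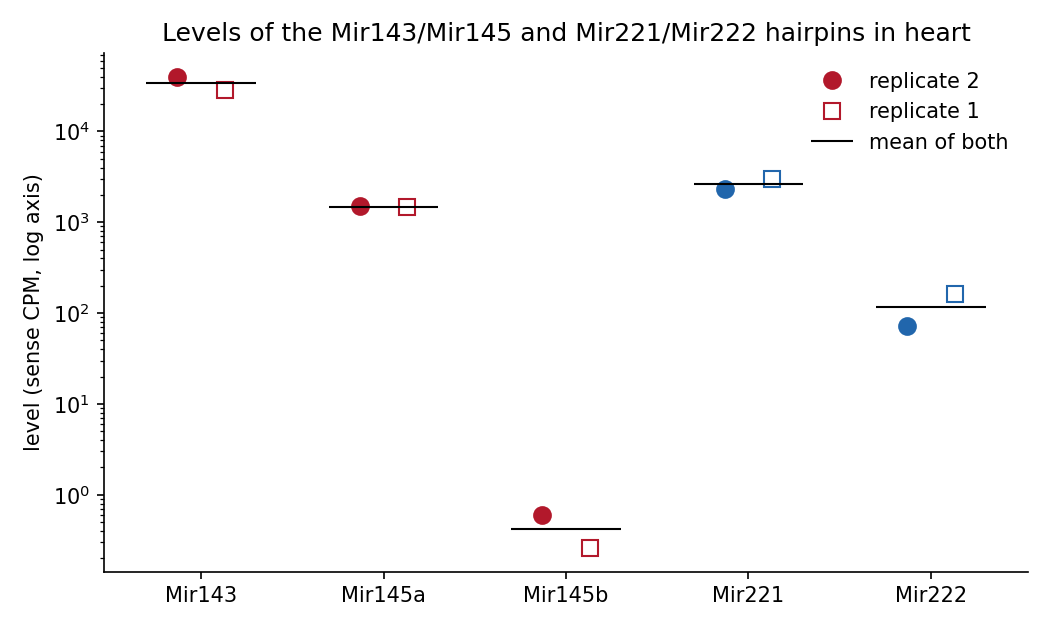
Levels of the 5 hairpins in sense CPM on a log axis, with replicate 2 as filled circles, replicate 1 as open squares and the mean of both as a line, red for Mir143, Mir145a and Mir145b and blue for Mir221 and Mir222. Mir143 stands at 40225 and 28674 CPM and Mir145b under 1 CPM in both libraries.

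Among the 325 genes with at least 10 counts in both libraries, 4 of the 5 members were present. Mir143 lay at percentile 97.5 of their counts in replicate 2 and 96.3 in replicate 1. Mir222 lay at percentile 56.3 in replicate 2 and 64.6 in replicate 1, so its level was ordinary for a detected gene. By the larger difference in log2(CPM + 1) over both libraries, the genes of level nearest to Mir143 were Mir139 at 0.57 and Mir99a at 0.62. Those nearest to Mir145a were Mir10a at 0.15 and Mir98 at 0.16. Nearest to Mir221 were Mir93 at 0.15 and Mir130a at 0.59, and nearest to Mir222 were Mir1249 at 0.27 and Mir664 at 0.34. Likeness here means level in 2 libraries only.

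**Figure D2:**
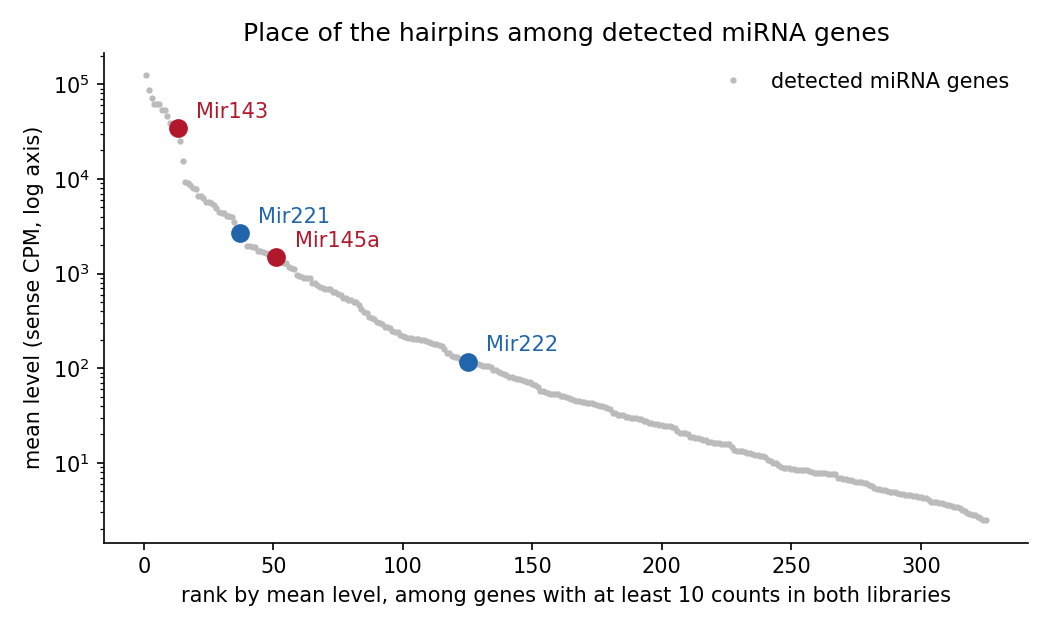
Mean level in sense CPM on a log axis against rank among the 325 detected miRNA genes in grey, with Mir143 and Mir145a in red and Mir221 and Mir222 in blue. Mir143 sits at rank 13 by mean level, Mir221 at 37, Mir145a at 51 and Mir222 at 125.

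The Mir143/Mir145a cluster outnumbered the Mir221/Mir222 pair in both libraries. The cluster held 211184 counts in replicate 2, against 12083 for the pair, a ratio of 17.5 (95% exact Clopper-Pearson interval 17.2 to 17.8). In replicate 1 the cluster held 117210 counts, against 12243 for the pair, a ratio of 9.57 (9.40 to 9.75). The mean ratio was 13.5 ± 5.59 (SD, n = 2), and 20.2 ± 8.40 when counts were taken per hairpin base. No molecular identifiers are named for these PCR-amplified libraries, so the intervals cover counting error only. With 2 libraries a two-sided exact permutation test over libraries cannot go below p = 0.5.

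That excess lay in Mir143. Mir143 gave 96.4% of the cluster's counts in replicate 2 (95% exact interval 96.3 to 96.4), against 95.1% in replicate 1 (95.02 to 95.27). Mir145a, by contrast, had fewer counts than Mir221 in both libraries, with a ratio of Mir145a to Mir221 of 0.657 in replicate 2 (0.638 to 0.676) and 0.490 in replicate 1 (0.475 to 0.506). Per hairpin base the ratio was 0.892 in replicate 2 and 0.665 in replicate 1. Without Mir143, the ratio of the cluster to the pair fell below 1, to a mean of 0.551.

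Each locus gave most of its counts from a single hairpin. Mir143 exceeded Mir145a by 26.4 to 1 in replicate 2 (25.8 to 27.0) and by 19.6 to 1 in replicate 1 (19.1 to 20.1), a mean of 23.0 ± 4.83. Mir221 exceeded Mir222 by 32.2 to 1 in replicate 2 (29.0 to 35.8) and by 18.4 to 1 in replicate 1 (17.0 to 20.0), a mean of 25.3 ± 9.73. The more abundant hairpin is the upstream one at the Mir143 locus and the downstream one at the Mir221 locus. Mir221 gave 97.0% of the pair's counts in replicate 2 and 94.9% in replicate 1.

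**Figure D3:**
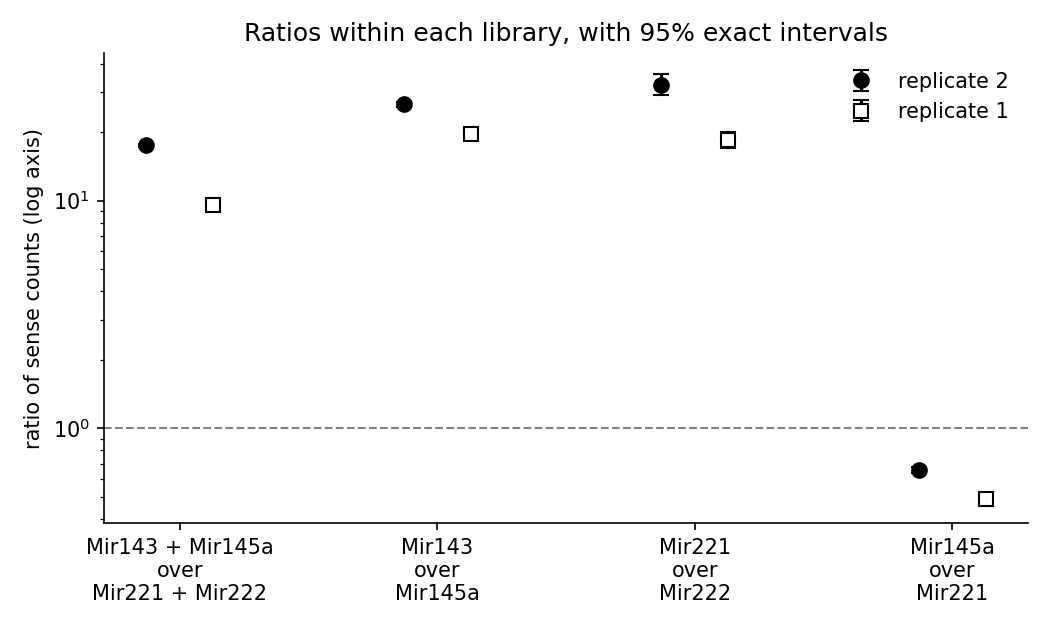
Ratios of sense counts within each library on a log axis, with 95% exact intervals, replicate 2 as filled circles and replicate 1 as open squares, and a dashed line at a ratio of 1. The first 3 ratios lie above 9 in both libraries, and the ratio of Mir145a to Mir221 lies below 1 in both.

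All 3 of these ratios were higher in replicate 2 than in replicate 1. The ratio of cluster to pair was 1.83 times as high in replicate 2 (two-sided Fisher's exact test, adjusted p below 1e-300). The ratio of Mir143 to Mir145a was 1.35 times as high (adjusted p = 1.56e-61, Fisher's exact test), and that of Mir221 to Mir222 was 1.75 times as high (adjusted p = 3.35e-17, Fisher's exact test). The p-values were Benjamini-Hochberg adjusted over these 3 ratios and cover counting error only. They compare these libraries and no conditions.

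Gene by gene, Mir143 and Mir145a were higher in replicate 2 and Mir221 and Mir222 higher in replicate 1. All 4 members tested passed a two-sided exact binomial test between the libraries, 2 in each direction, with adjustment over all 412 genes tested at 0.05. Of all tested genes 45.4% passed, 22.6% higher in replicate 2 and 22.8% higher in replicate 1. The test calls abundant genes readily, with 53 of 57 genes of at least 5000 counts on average called, among them Mir143, Mir145a and Mir221. After TMM scaling of library sizes, Mir143 was 1.53-fold higher in replicate 2 (95% exact interval 1.51 to 1.54). Mir145a was 1.13-fold higher in replicate 2 (1.09 to 1.17, adjusted p = 6.57e-12, exact binomial test).

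Mir221 was 1.19-fold higher in replicate 1 (1.16 to 1.22, adjusted p = 1.46e-37, exact binomial test). Mir222 was 2.07-fold higher in replicate 1 (1.82 to 2.36, adjusted p = 1.31e-28, exact binomial test). The log2 ratios of replicate 2 over replicate 1 were 0.61 for Mir143, 0.18 for Mir145a, -0.25 for Mir221 and -1.04 for Mir222. The median size of the log2 ratio over detected genes was 0.36, so Mir145a and Mir221 differed by less than the typical gene and Mir143 and Mir222 by more. In size, the ratios lay at percentiles 70.5, 24.6, 34.8 and 89.8 of detected genes, in the same order. With total-count scaling, which moved the median of detected genes by -0.12, the log2 ratio of Mir145a was 0.057 (adjusted p = 0.0488, exact binomial test). Replicate 2 was the higher library in 49.7% of all calls, against 39.7% with total-count scaling.

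**Figure D4:**
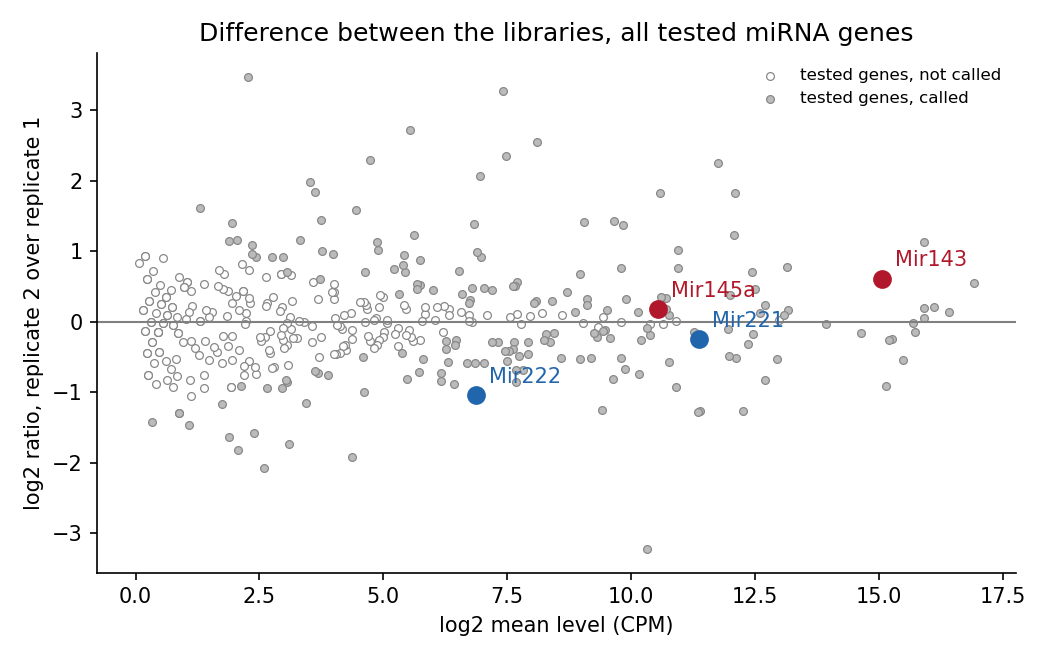
Log2 ratio of replicate 2 over replicate 1 against log2 mean CPM for the 412 tested miRNA genes, grey where called and open where not, with the members in red and blue. Mir143 and Mir145a lie above 0 and Mir221 and Mir222 below it, within the spread of other genes.

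Marker hairpins of other cells also differed between the libraries, and their part in the differences above was not tested. Their calls stand beside 45.4% of all 412 tested genes called, 22.6% higher in replicate 2 and 22.8% higher in replicate 1. The endothelial marker Mir126a was 1.10-fold higher in replicate 2 after TMM scaling, at 87787 CPM before it and 87115 CPM in replicate 1, while its partner Mir126b had 4 counts in replicate 2 and 6 counts in replicate 1. The column that ignores strand, in which 29 of the 412 tested genes lost reads, kept almost none of those of Mir126a. For replicate 2 it held 23, where the sense count was 444082, and for replicate 1 it held 27, where that was 338813. The log2 ratio of -0.39 from these few reads was not called (adjusted p = 0.461, exact binomial test). With nearly all reads lost, that column cannot test the difference seen in the sense counts of Mir126a. The 7 heart muscle markers summed to 0.748% of sense counts in replicate 2 and 0.678% in replicate 1, with 2 called in each direction. Mir1a-2, called higher in replicate 2, was not called with total-count scaling, at a log2 ratio of 0.27 (adjusted p = 0.148, exact binomial test). The 4 fibroblast markers summed to 0.127% in replicate 2 and 0.261% in replicate 1, nearly all from Mir214, and Mir199a-1 had 0 counts in both. All but Mir214, 3 of the 4, share a stretch of 20 bases with another hairpin, so their low counts are uncertain. The 4 leukocyte markers summed to 0.50% in replicate 2 and 0.683% in replicate 1, with Mir155 called higher in replicate 1 and 3 not called. With total-count scaling Mir150 was also called higher in replicate 1, at a log2 ratio of -0.15. The 3 erythroid markers summed to 0.124% in replicate 2 and 0.165% in replicate 1, with Mir144 called 1.77-fold higher in replicate 2 and Mir451a and Mir486 called higher in replicate 1. Mir486, which muscle also makes, held 5190 of their 6288 counts in replicate 2 and 5187 of 6431 in replicate 1. That sum therefore does not measure red cells alone. The 6 epithelial markers summed to 0.0193% in replicate 2 and 0.0101% in replicate 1, and 4 of them were called higher in replicate 2. Mir429 was also called higher in replicate 2 with DESeq2 size factors and in the column that ignores strand. The endothelial markers Mir126a and Mir126b, the leukocyte marker Mir142 and the erythroid markers Mir451a and Mir486 also share a stretch of 20 bases with another hairpin. Their counts are uncertain in the same way.

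Among other miRNAs with known roles in smooth muscle, both kinds of role held calls in each direction. A list of 11 hairpins whose miRNAs promote the contractile state or restrain growth held 5.33% of sense counts in replicate 2 and 4.07% in replicate 1, most of it Mir143. Of its 10 tested hairpins, 5 were higher in replicate 2, 2 were higher in replicate 1 and 3 were not called, beside 22.6% and 22.8% of all 412 tested genes called in these directions. The median log2 ratio was 0.13 in the list and -0.0077 over all tested genes. A list of 12 hairpins whose miRNAs promote growth or the synthetic state held 1.51% in replicate 2 and 1.29% in replicate 1. Of these 12, 7 were higher in replicate 2, 4 were higher in replicate 1 and 1 was not called, with a median log2 ratio of 0.28. That count stands beside 45.4% called of all tested genes and 53 of 57 called among genes of at least 5000 counts on average. Leaving out Mir221 and Mir222, 7 of the other 10 growth hairpins were higher in replicate 2 and 2 were higher in replicate 1. Without Mir143 and Mir145a, 3 of the other 8 tested contractile hairpins were higher in replicate 2 and 2 were higher in replicate 1. The median log2 ratios without these members were 0.090 in the contractile list and 0.32 in the growth list. With total-count scaling 3 hairpins of the full contractile list were called higher in replicate 2 and 2 higher in replicate 1, with a median of 0.022. The full growth list then had 6 called higher in replicate 2 and 5 higher in replicate 1, with a median of 0.16. Under that scaling 199 of all 412 tested genes were called, or 48.3%, with 79 higher in replicate 2 and 120 higher in replicate 1. The median over all tested genes was then -0.115, so the medians of the lists and of all genes moved down together.

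The 3 most abundant of the other contractile hairpins were Mir34a, Mir195a and Mir490. Mir34a, a target of the tumour suppressor p53, stood at 8608 CPM in replicate 2 and 8747 CPM in replicate 1, a mean of 8678 ± 98.5 CPM, above Mir145a and Mir221. Its CPM was thus lower in replicate 2, while TMM scaling made it 1.07-fold higher there, a call that was lost with total-count scaling, at a log2 ratio of -0.023 (adjusted p = 0.0541, exact binomial test). Mir195a, of the growth-restraining miR-15 family, was 2.03-fold higher in replicate 2, at 2567 CPM there and 1374 CPM in replicate 1. Mir490 was 1.22-fold higher in replicate 1, at 207 CPM in replicate 2, against 275 CPM in replicate 1.

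The 3 most abundant of the other growth hairpins were Mir21a, Mir208a and Mir130a. Mir21a, which rises after vessel injury, was 4.74-fold higher in replicate 2, at 5632 CPM there and 1291 CPM in replicate 1. It therefore exceeded Mir221 in replicate 2 and not in replicate 1. Mir208a, an intron hairpin of the heart muscle myosin gene Myh6, was 2.40-fold higher in replicate 1, at 1485 CPM in replicate 2 and 3885 CPM in replicate 1. It held 7513 of the growth list's 76493 counts in replicate 2 and 15109 of 50136 in replicate 1. Mir208a also stands among the heart muscle markers above, as do the miR-1 and miR-133 hairpins of the contractile list. In whole heart these entries need not report smooth muscle. Mir130a stood at 1836 CPM in replicate 2 and 1986 CPM in replicate 1 and was not called (adjusted p = 0.866, exact binomial test). With total-count scaling it was called higher in replicate 1, at a log2 ratio of -0.11, and in the column that ignores strand it was called higher in replicate 2, at 0.056 (adjusted p = 0.0285, exact binomial test).

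Hairpins of 4 contractile and 5 growth list entries share a stretch of 20 bases with another hairpin, so their counts are uncertain. They are the hairpins of miR-1 and miR-133 (Mir133a-1, Mir133a-2, Mir1a-1 and Mir1a-2) in the contractile list, and Mir146, Mir24-1, Mir24-2, Mir26a-1 and Mir26a-2 in the growth list. The low counts of the muscle hairpins Mir1a-2, with 222 counts in replicate 2 and 141 in replicate 1, and Mir133a-1, with 18 counts in replicate 2 and 14 in replicate 1, are read with that limit. The members compared here have no such stretch.

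**Figure D5:**
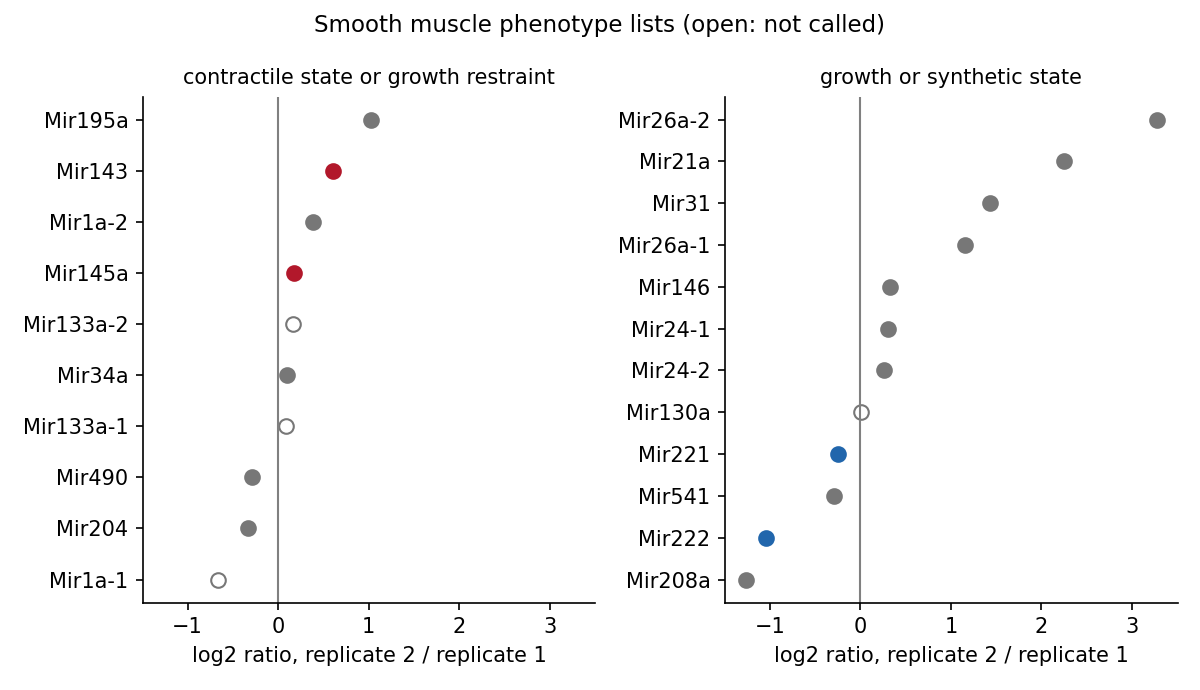
Log2 ratio of replicate 2 over replicate 1 for the tested hairpins of the contractile list on the left and the growth list on the right, open where not called, with Mir143 and Mir145a in red and Mir221 and Mir222 in blue. Both lists hold genes on each side of 0, with Mir26a-2 highest and Mir208a lowest.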

How the data were processed

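MicroRNA-seq counts of 2 heart libraries, replicates 2 and 1 of a single group by their labels, were used. The authors deposited raw counts per miRNA gene on mm10 with annotation M21, per the deposited description files, in 3 columns. The first ignores strand, and column 3, the larger strand, was taken as sense. For the aligner and read filters, nothing is given in the sources used here. The 4 summary lines, 64.4% of reads in replicate 2 and 64.1% in replicate 1, stayed out of library sizes. Levels are CPM of sense counts.

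Genes with a sum of at least 10 counts were tested by a two-sided exact binomial test at TMM effective sizes (edgeR 4.0.16), with Benjamini-Hochberg adjustment over 412 genes. Log2 ratios add 1 CPM. A quasi-likelihood fit has no residual degrees of freedom between 2 single libraries. Ratios within a library carry exact Clopper-Pearson intervals. Fisher's exact test compared them between libraries, and for the 2 ratios within a locus it was added after seeing the data, as was the scaling to hairpin length. Values per hairpin base are descriptive only, since counts of a short miRNA need not grow with hairpin length. The members and lists were chosen with earlier results of these data known. Named genes were the members, the 3 most abundant others of each list, the 2 nearest in level, seed sharers, markers and miRNA genes within 10 kb. Other scalings, filters, pseudocounts and the column that ignores strand were tried.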

Additional observations from a re-analysis of the deposited data

How the results depend on the processing

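Mir143, Mir145a, Mir221 and Mir222 kept their direction and call under 24 of 24 alternatives: the column that ignores strand, total-count scaling, DESeq2 size factors, no filter, a sum of at least 50 counts and a pseudocount of 0.1 CPM. The pseudocount does not enter the test and could not change a call. The column that ignores strand held the same counts for these genes, so for them only the scaling and adjustment differed. The log2 ratio of replicate 2 over replicate 1 ranged from 0.49 to 0.66 for Mir143, 0.057 to 0.23 for Mir145a, -0.37 to -0.20 for Mir221 and -1.16 to -0.99 for Mir222. The ratio of cluster to pair reversed to 0.551 with Mir143 left out and was 20.2 per hairpin base, against 13.5. Its values without replicate 1 or 2 were 17.5 and 9.57. For Mir143 over Mir145a they were 26.4 and 19.6, and for Mir221 over Mir222 they were 32.2 and 18.4. Calls over all genes ranged from 174 to 199, of which 162 to 187 were shared with the main 187. Dividing by all reads, aligned or not, lowered each level, with Mir143 at 12310 CPM, since most reads were given to no gene. Mir145b stays under the depth of these libraries. No paired analysis was possible because the libraries form a single group.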

Other observations

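Uneven output of neighbouring hairpins was set beside that of other loci, a comparison chosen after the values of the members were seen. Adjacent detected hairpins on the same strand within 10 kb formed 88 pairs, and the median ratio of the more to the less abundant hairpin, as the geometric mean of both libraries, was 4.85. Mir221 over Mir222, at 24.4, ranked 11 of these 88, and Mir143 over Mir145a, at 22.8, ranked 14. Among the 37 pairs with no stretch of 20 bases shared with another hairpin, the median was 3.54, and the member loci ranked 4 and 6. The pairs ranked above both there were Mir322 over Mir503 at 79.9, Mir30d over Mir30b at 29.8 and Mir127 over Mir434 at 27.3. The size of the log2 change of the ratio between the libraries was 0.80 for the Mir221 locus and 0.43 for the Mir143 locus, against a median of 0.50 over the 88 pairs. These are ratios of read counts, and how well each miRNA is captured in library preparation was not tested.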
